A study of Rattus norvegicus with 20 samples.

Results

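The 10 genes described here encode enzymes that turn cholesterol into conjugated bile acids in the liver: Cyp7a1, Cyp8b1, Cyp7b1, Cyp27a1, Hsd3b7, Akr1d1, Amacr, Acox2, Slc27a5 and Baat. They were chosen by name, through the gene identifiers of the array annotation, and are 10 of the 14217 genes measured with 1 symbol. Their 11 probe sets are among the 31039 tested. The brightest probe set of a gene, by its average on the 20 arrays, stood for the gene, and Akr1d1 alone had another probe set, kept as a check.

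Liver mRNA of 20 male Sprague-Dawley rats was measured on Affymetrix arrays, 1 array per rat. The rats came at 4 weeks of age and ate 1 of 4 diets for 21 days, 5 rats each, all with 200 g/kg protein and 150 g/kg fat. TF combined freeze-dried tofu with fish oil, TS tofu with soybean oil, CF casein with fish oil, and CS casein with soybean oil. In TF and CF, 50 g/kg of the soybean oil was replaced by fish oil. The tofu diets also held some casein, and tofu brought its own fat and other soybean components, so a difference between tofu and casein is one between these diets and not between purified proteins. By the methods, the rats that ate the most and the least in a group were not put on arrays, and food was withdrawn for a few hours before the liver was taken. The deposited value is a z score on a log scale, set within each array, in which 0 lies near the middle of the array's signals and a step of 0.2 stands for a 1.41-fold difference. A difference is given in z as the first-named diet minus the second, and a fold only where both means lay above 0.0220, the highest median of an array. Since whole liver was used, fewer cells of a type and less RNA per cell cannot be told apart.

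Bile acids are made in hepatocytes along more than 1 route. In the classic route Cyp7a1 adds a hydroxyl group to cholesterol, the rate-limiting step, while in the alternative route Cyp27a1 oxidizes the side chain and Cyp7b1 follows. Hsd3b7 and Akr1d1 then change the steroid ring, Cyp8b1 steers the product towards cholic acid, Amacr and Acox2 take part in the shortening of the side chain in peroxisomes, and Slc27a5 and Baat join the acid to coenzyme A and then to taurine or glycine. Bile acids returning from the gut lower the transcription of Cyp7a1 and Cyp8b1 through the receptors Fxr and Fgfr4 and the repressor Shp, and loss of bile acids in the faeces releases this brake. In rats the promoter of Cyp8b1 is known to be bound by the liver receptor homolog 1 (Nr5a2).

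The promoters of 2 members are shown, since Cyp8b1 was the gene with a called difference and Cyp27a1 was the one whose promoter held both planned motifs. Both are the 250 bases before the start in the RefSeq table (build GRCr8), which held 7 of the 10 members. The stretch of Cyp27a1 lies within the span of that gene, which begins at 83712402, so this start is not the gene's first base. The stretches of Amacr (to 61673334) and Acox2 (to 19090954), not shown, also run into their genes, which begin at 61673291 and 19090820. Not in the table were Cyp7a1, Cyp7b1 and Akr1d1. Capitals mark matches, on either strand, to the nuclear receptor hexamer AGGTCA, to the homolog site CAAGGTCA, which contains the hexamer, or to CAAGGNCA, the same site with 1 free base, which was added after the sequences had been seen.
Cyp8b1 (chr8:130457593-130457842, minus strand): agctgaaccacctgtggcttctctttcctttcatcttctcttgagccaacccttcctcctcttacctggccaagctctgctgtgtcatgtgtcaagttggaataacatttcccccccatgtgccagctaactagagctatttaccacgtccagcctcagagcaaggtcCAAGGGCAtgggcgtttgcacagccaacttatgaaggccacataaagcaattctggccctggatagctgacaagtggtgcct
Cyp27a1 (chr9:83713282-83713531, plus strand): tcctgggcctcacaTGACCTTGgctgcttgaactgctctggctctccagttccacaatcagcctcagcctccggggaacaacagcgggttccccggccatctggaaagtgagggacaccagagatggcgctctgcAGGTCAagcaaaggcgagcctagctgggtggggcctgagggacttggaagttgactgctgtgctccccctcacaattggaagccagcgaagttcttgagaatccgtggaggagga
The Cyp8b1 promoter held CAAGGGCA 82 bases before the start and neither planned motif. The Cyp27a1 promoter held the hexamer 115 bases before the start and, 236 bases before it, the full homolog site on the opposite strand. Of the other 5 promoters, that of Amacr held the hexamer and that of Acox2 a match to CAAGGNCA, and those of Hsd3b7, Slc27a5 and Baat held none. Among all 33469 promoters of the table, read over the same length, AGGTCA stood in 14.1%, CAAGGTCA in 1.33% and CAAGGNCA in 5.58%. A match is a stretch of letters and not a measured site.

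The first comparison asked whether the protein source of the diet went with the level of these enzymes. With tofu 9 of the 10 genes had a higher mean z than with casein, by a median of 0.16, against a median of 0.01 over all probe sets, 58.0% of which were higher. None of the 10 passed an adjusted p of 0.05 in limma, where 0.557% of all probe sets did. At an unadjusted p under 0.05, 7 of the 10 were higher with tofu. The same held for 6.65% of all probe sets, and for 7.74% of those with a mean z above 0, where 9 of the 10 genes lie.

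Cyp7a1, the rate-limiting enzyme, had the largest difference of the 10. Its z was 0.593, 0.516, 1.03, 0.497 and 0.283 in the 5 TF rats, and 0.202, 0.789, 0.413, 0.765 and 1.38 in the 5 TS rats. In the CF rats it was -0.505, -0.0509, -0.0527, 0.243 and 0.221, and in the CS rats -0.0611, -0.707, 0.359, 0.500 and 0.162. All 10 tofu rats lay above the mean of the casein rats, and 6 of them above the highest casein rat. Cyp7a1 averaged 0.647 ± 0.357 with tofu and 0.0107 ± 0.376 with casein (SD, n = 10 each). The difference of 0.64 (SE 0.16, 95% interval 0.30 to 0.97) did not pass over all probe sets (adjusted p = 0.0899, limma). Of all probe sets 0.0515% had a larger absolute difference between the proteins. That share does not weigh the SE, which was 0.16 for Cyp7a1 against a median of 0.05 over all probe sets. No fold is given, because the casein mean lay within the range of the array medians. Over 10 alternative settings the adjusted p ran between 0.0293 and 0.286 and passed in 1, the test of probe sets with a mean z above 0 alone, and it passed in 0 of 20 fits with 1 rat left out (0.0646 to 0.156).

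The Cyp7a1 mean was higher with tofu on both oils. TF and CF did not overlap, as do 0.699% of all probe sets in the direction of TF above CF, and differed by 0.61 (95% interval 0.14 to 1.09, adjusted p = 0.592). TS exceeded CS by 0.66 (95% interval 0.19 to 1.14, adjusted p = 0.467), with 5 of 5 TS rats above the CS mean and overlapping ranges. The spread between rats of 1 diet was wide, with an SD of 0.450 in TS and of 0.473 in CS, against 0.273 in TF and 0.302 in CF. CS-2, at -0.707, and TS-7, at 1.38, were the lowest and the highest of all 20 rats.

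Cyp8b1, which sets the share of cholic acid, was the member with a called difference. Its z was 2.59, 2.40, 2.25, 2.53 and 2.44 in the TF rats, and 2.11, 2.24, 2.20, 2.23 and 2.49 in the TS rats. In the CF rats it was 2.03, 2.12, 2.30, 2.33 and 2.30, and in the CS rats 2.02, 1.90, 2.09, 1.97 and 2.12. Every TF rat lay above every CS rat, and the TS and CF rats lay between and overlapped both. The order of the means was TF 2.44 ± 0.130, TS 2.25 ± 0.140, CF 2.22 ± 0.134 and CS 2.02 ± 0.0893 (SD, n = 5 each).

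TF, which differs from CS in both protein and oil, exceeded it by 0.42 in Cyp8b1 (SE 0.08, 95% interval 0.26 to 0.58, adjusted p = 0.0143, limma), or 2.07-fold (95% interval 1.57 to 2.75). It was the 1 member called between these diets, where 0.457% of all probe sets passed and 1.3% had all TF rats above all CS rats. Over the alternative settings the adjusted p ran between 0.00322 and 0.108 and passed in 9 of 11. It was 0.0649 without the 4 rats with a low 5' actin signal. Leaving out TF-6 gave 0.0521 and leaving out CS-2 gave 0.0505, and it passed in the 18 other fits with 1 rat left out.

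Each factor alone fell short of the threshold in Cyp8b1. With tofu it averaged 2.35 ± 0.161 and with casein 2.12 ± 0.150 (SD, n = 10 each), a difference of 0.23 (SE 0.05, adjusted p = 0.0712), or 1.49-fold (95% interval 1.22 to 1.81). With fish oil it averaged 2.33 ± 0.171 and with soybean oil 2.14 ± 0.166 (SD, n = 10 each), a difference of 0.19 (SE 0.05, adjusted p = 0.400), or 1.40-fold (95% interval 1.14 to 1.70). The contrasts share rats, and both belong to the TF and CS difference. Neighbours in the order of the means that were contrasted did not pass over all probe sets. TF exceeded TS by 0.19 (95% interval 0.02 to 0.35, adjusted p = 0.781, limma). CF exceeded CS by 0.20 (95% interval 0.04 to 0.36, adjusted p = 0.99997, limma). Both intervals lay above 0, and they are not adjusted for the number of probe sets tested. TS and CF, which differ in both factors, were not contrasted.

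**Figure D1:**
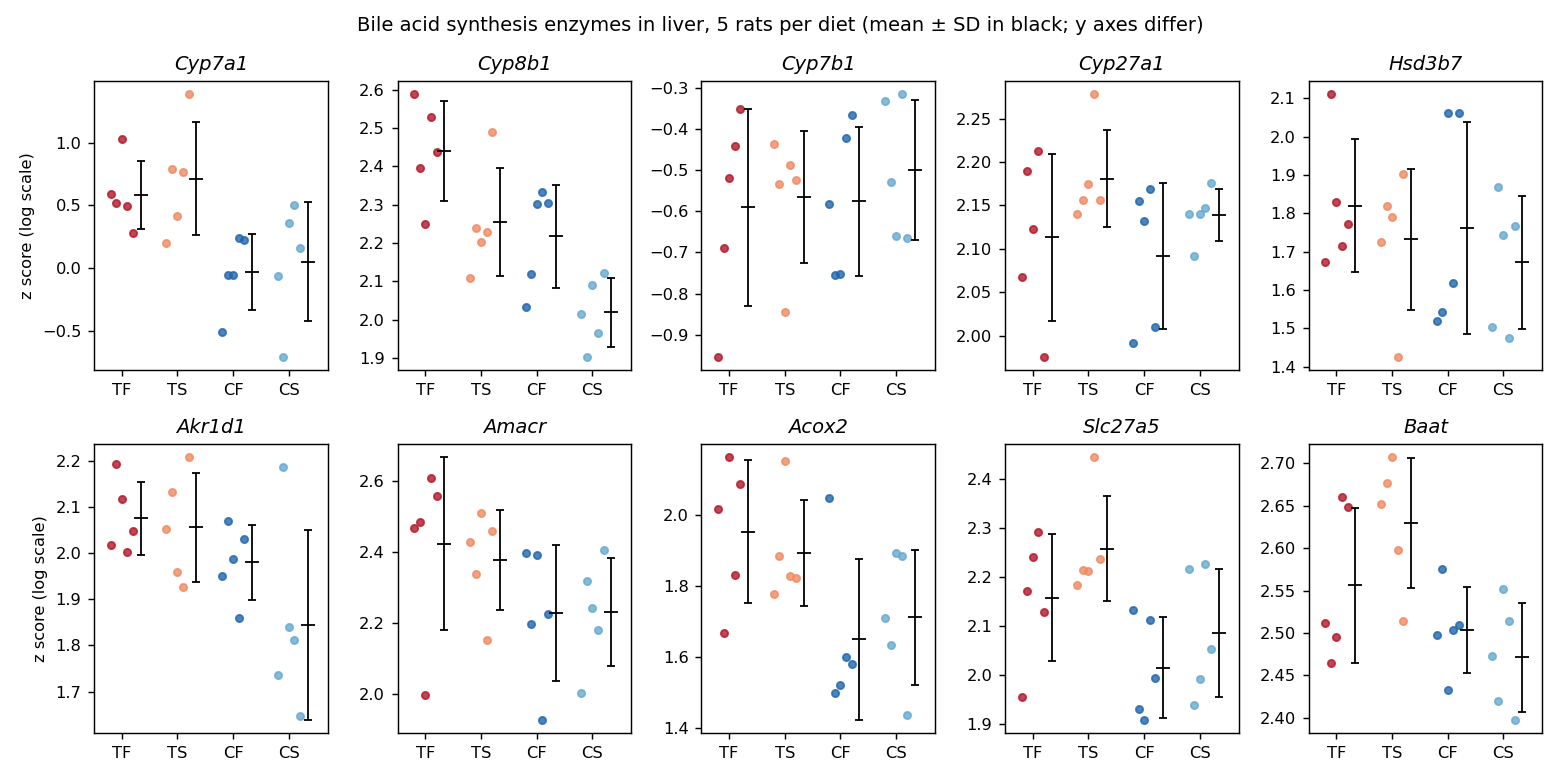
The z score (log scale, vertical axis, a range of its own per panel) of each enzyme in every rat, with diets TF, TS, CF and CS along the horizontal axis, and the mean ± SD of 5 rats in black. The TF rats of Cyp8b1, at 2.25 to 2.59, stand above all CS rats, at 1.90 to 2.12, while the diets overlap in Cyp7b1 and Cyp27a1.

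The enzymes of the alternative route had small differences. Cyp27a1, the mitochondrial side chain hydroxylase, had 1.98 to 2.21 in TF, 2.14 to 2.28 in TS, 1.99 to 2.17 in CF and 2.09 to 2.18 in CS. Its tofu and casein means differed by 0.03 (95% interval -0.04 to 0.10, adjusted p = 0.808), an interval that leaves out a difference of 0.2. Cyp7b1, the oxysterol hydroxylase, lay below the median of the array in every rat, with -0.954 to -0.350 in TF, -0.844 to -0.436 in TS, -0.755 to -0.367 in CF and -0.664 to -0.316 in CS. It was the member with a lower mean with tofu, by -0.04 (95% interval -0.21 to 0.13, adjusted p = 0.914), and its sign changed without TF-3. In neither gene did the rats of 2 diets separate.

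The ring enzymes Hsd3b7 and Akr1d1 did not give the same picture. Hsd3b7, the dehydrogenase that acts after the 7-hydroxylases, spread widely within diets, with 1.67 to 2.11 in TF, 1.43 to 1.90 in TS, 1.52 to 2.06 in CF and 1.48 to 1.87 in CS, and differed by 0.06 between tofu and casein (95% interval -0.12 to 0.24, adjusted p = 0.870). Akr1d1, the 5-beta reductase, had 2.02, 2.19, 2.12, 2.003 and 2.05 in TF and 2.05, 2.13, 1.96, 1.93 and 2.21 in TS. Its values were 1.95, 2.07, 1.99, 1.86 and 2.03 in CF and 1.74, 2.19, 1.84, 1.81 and 1.65 in CS. All 10 tofu rats lay above the casein mean, and 4 of the 5 CS rats lay below every other rat, with CS-2 among the highest.

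The Akr1d1 difference of 0.15 between tofu and casein (SE 0.06, 95% interval 0.03 to 0.27) did not pass (adjusted p = 0.326). Its difference between TF and CS was 0.23 (adjusted p = 0.304), and 0.32 without CS-2 (adjusted p = 0.0386). The other Akr1d1 probe set, whose name marks probes that may match more than 1 transcript, gave -0.07 between tofu and casein (95% interval -0.31 to 0.17, adjusted p = 0.898). In it TF-4, at 1.18, and TS-7, at 1.13, were far below the other rats, and these 2 arrays are among the 3 least correlated with the rest. The same 2 arrays stood highest of all rats in the probe set used, TS-7 at 2.208 and TF-4 at 2.192, just above CS-2 at 2.185. In the probe set used, the difference between tofu and casein ran from 0.13 to 0.20 with each rat left out. How far the difference in the other probe set rests on these 2 arrays was not tested. The sign of the Akr1d1 difference turned with the probe set between tofu and casein, and also between TF and CF (0.10 and -0.15). It did not turn between TF and CS, where the other probe set gave 0.04.

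The peroxisomal enzymes had higher means with tofu, without passing the threshold. Acox2, the oxidase for branched side chains, had 2.02, 1.67, 2.16, 1.83 and 2.09 in TF and 1.78, 1.88, 2.15, 1.83 and 1.82 in TS. It had 2.05, 1.498, 1.52, 1.60 and 1.58 in CF and 1.71, 1.63, 1.89, 1.88 and 1.44 in CS. The CF rats were low but for CF-1, and 9 of 10 tofu rats lay above the casein mean. Acox2 differed by 0.24 between tofu and casein (SE 0.08, 95% interval 0.07 to 0.41, adjusted p = 0.265), or 1.52-fold. Amacr, the racemase that readies the side chain for Acox2, had 1.997 to 2.61 in TF, 2.15 to 2.51 in TS, 1.93 to 2.40 in CF and 2.003 to 2.41 in CS, and differed by 0.17 (95% interval 0.01 to 0.34, adjusted p = 0.465).

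The conjugating enzymes also had higher means with tofu, again without passing. Baat, the acyltransferase that adds taurine or glycine, had 2.51, 2.46, 2.50, 2.66 and 2.65 in TF and 2.65, 2.68, 2.71, 2.60 and 2.51 in TS. It had 2.50, 2.58, 2.43, 2.50 and 2.51 in CF and 2.47, 2.42, 2.55, 2.51 and 2.40 in CS. TS was the highest diet, and 9 of 10 tofu rats lay above the casein mean. The Baat difference was 0.11 between tofu and casein (SE 0.03, 95% interval 0.03 to 0.18, adjusted p = 0.242), or 1.20-fold. Slc27a5, the bile acid coenzyme A ligase, had 1.95 to 2.29 in TF, 2.18 to 2.45 in TS, 1.91 to 2.13 in CF and 1.94 to 2.23 in CS, a difference of 0.16 between tofu and casein (SE 0.05, 95% interval 0.05 to 0.27, adjusted p = 0.244). In Slc27a5, too, 9 of 10 tofu rats lay above the casein mean.

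The comparison of the oils asked the same of fish oil against soybean oil. With fish oil 4 of the 10 genes had a higher mean, with a median difference of -0.01, against 0.00 over all probe sets. None of the 10 passed, where 0.193% of all probe sets did, and 1 of them, Cyp8b1, was higher at an unadjusted p under 0.05, as were 2.97% of all probe sets. Next to Cyp8b1 the largest absolute difference was that of Cyp7a1, which averaged 0.277 ± 0.421 with fish oil and 0.381 ± 0.557 with soybean oil (SD, n = 10 each), a difference of -0.10 (95% interval -0.44 to 0.23, adjusted p = 0.9997). The other differences ran from -0.09 in Slc27a5 to 0.09 in Hsd3b7. The intervals of Cyp27a1 (-0.13 to 0.01), Baat (-0.09 to 0.05), Slc27a5 (-0.19 to 0.02), Acox2 (-0.17 to 0.17), Amacr (-0.14 to 0.19) and Akr1d1 (-0.04 to 0.197, by the probe set used) left out a difference of 0.2 in either direction.

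No member gave a called interaction between protein and oil, and 0 of the 10 had an unadjusted p under 0.05. Over all probe sets 0% passed in limma and 1065 (3.43%) had an unadjusted p under 0.05. The interaction was -0.05 for Cyp7a1 (95% interval -0.72 to 0.62) and -0.01 for Cyp8b1 (95% interval -0.24 to 0.22), so for these genes sizeable interactions remain within the error. Between single diets no member passed other than Cyp8b1 above. In TS against CS 0.0709% of all probe sets passed, in TF against CF 0.0677%, in CF against CS 0.0451% and in TF against TS 0.0677%. At an unadjusted p under 0.05 stood 5 of the 10 members for TS against CS (7.15% of all probe sets), 3 for TF against CF (6.9%) and 3 for TF against CS (9.66%). For CF against CS (3.52%) and TF against TS (5.83%) it was 1 of 10 each, Cyp8b1, a share near that of all probe sets.

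**Figure D2:**
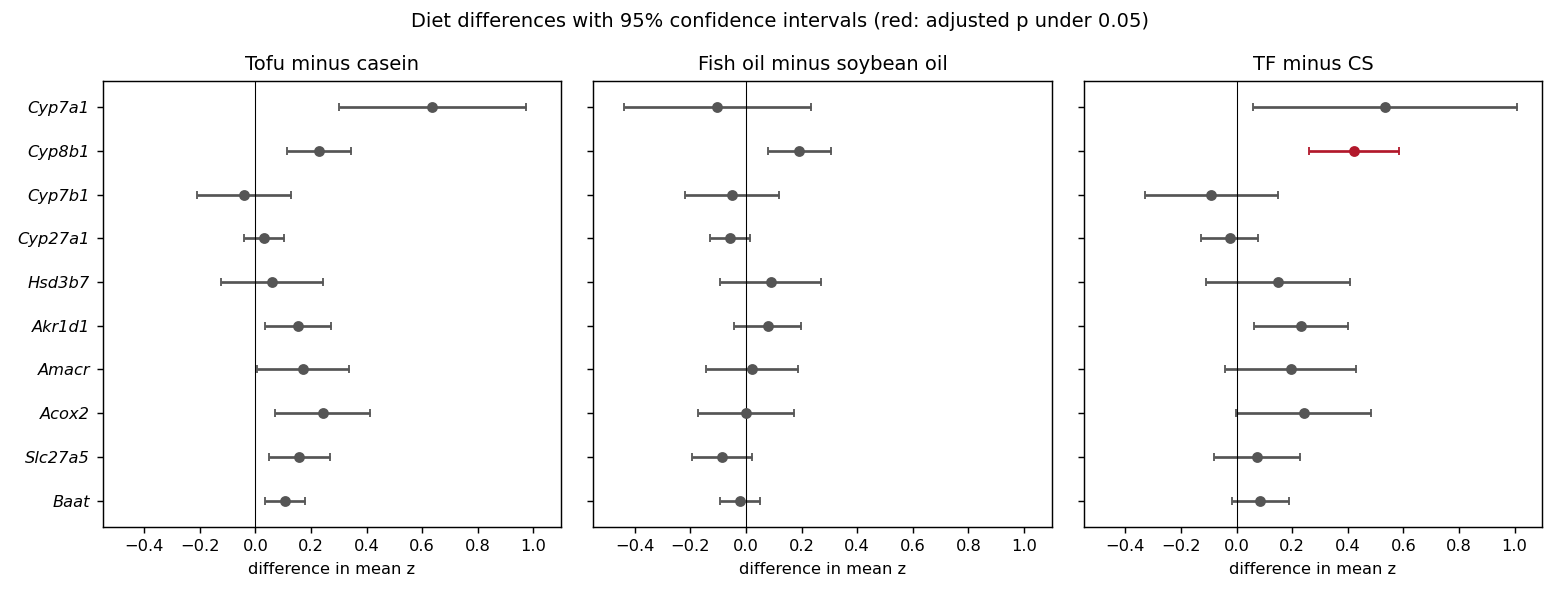
The difference in mean z (horizontal axis) of each enzyme for tofu minus casein, fish oil minus soybean oil and TF minus CS, as points with 95% confidence intervals. Cyp7a1 stands furthest right for tofu, at 0.64, and Cyp8b1 is the one in red (adjusted p under 0.05), at 0.42 for TF minus CS.

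Whether rats of a diet that were high in 1 enzyme were also high in another was read from pairs of members. After the group means were removed, 19 of the 45 pairs of members correlated above 0 over the 20 rats, with Pearson's r from -0.507 to 0.622. No pair passed after adjustment over the 45, and 5 had an unadjusted permutation p under 0.05. The highest was Cyp7b1 with Slc27a5 (r = 0.622, Spearman's rho = 0.648, permutation p = 0.0106 and 0.00671, adjusted p = 0.392 and 0.302), positive in each of the 4 diets, with r = 0.518 without TF-3 and TS-4. Cyp7a1 and Cyp8b1 gave r = 0.514 and rho = 0.396 (permutation p = 0.0289 and 0.0998, adjusted p = 0.392 and 0.553), and r = 0.305 without CS-2 and TS-7, so that relation leaned on those 2 rats.

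**Figure D3:**
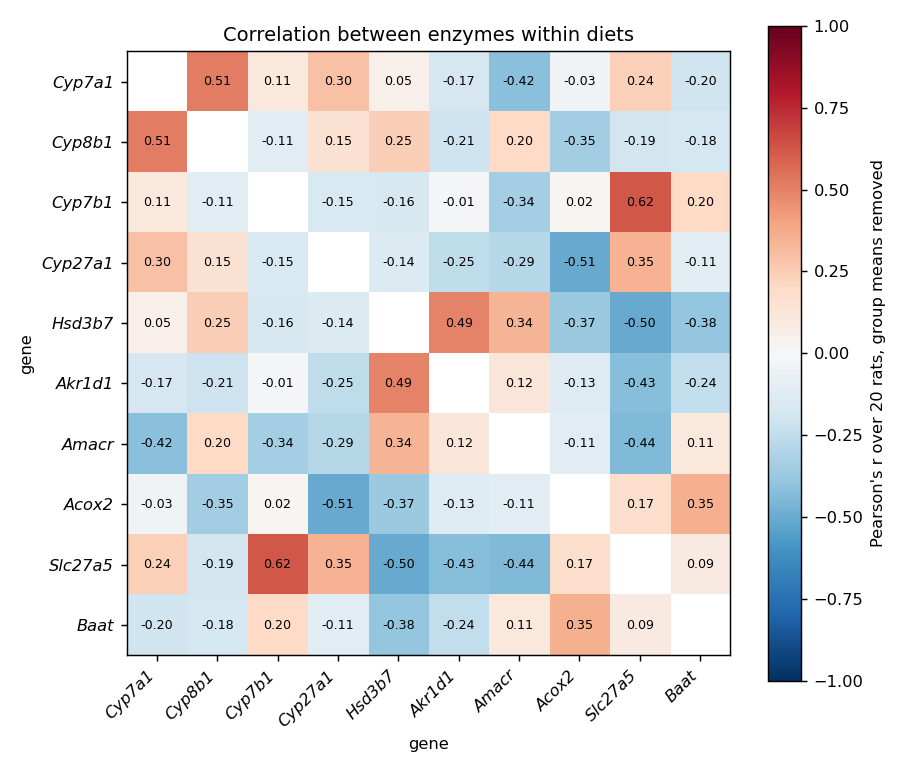
Pearson's r between each pair of enzymes (both axes) over 20 rats after the group means were removed, coloured on a scale of -1 to 1. Cyp7b1 with Slc27a5 is the highest at 0.62, and Cyp27a1 with Acox2 the lowest at -0.51.

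Over all 20 arrays and 14217 genes, the genes most like Cyp7a1 were Fuca2 (r = 0.826), Abat (r = 0.788) and Rtn3 (r = 0.773). After the group means were removed the same correlations were 0.702, 0.599 and 0.659. Those most like Cyp8b1, looked up after its values had been seen, were Cops4 (r = 0.843), Pald1 (r = 0.842) and Cyp2a2 (r = 0.821), with 0.767, 0.587 and 0.645 after the group means were removed. These values describe the arrays, which also share their scaling.

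Genes around the 10 enzymes were read from lists. Of all probe sets 0.557% were called between tofu and casein, 0.193% between the oils and 0.457% between TF and CS. Of the regulators of bile acid synthesis, 18 of 20 were measured and 1 was higher with tofu and none lower, with a median difference of 0.02. It was Nr1i3 (Car), a nuclear receptor that responds to bilirubin and drugs, at 0.870 ± 0.113 in TF, 0.715 ± 0.143 in TS, 0.544 ± 0.184 in CF and 0.206 ± 0.187 in CS (SD, n = 5 each). Its difference between tofu and casein was 0.42 (SE 0.07, adjusted p = 0.00551). The repressor Shp (Nr0b2), the receptor Fxr (Nr1h4), Fgfr4 and Nr5a2 were not called, at 0.25, -0.05, 0.03 and 0.07 between tofu and casein. These 4 were picked for their known place above Cyp7a1 and Cyp8b1 and lie outside the rule for named genes.

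Of the transporters 14 of 15 were measured, and 2 were higher with tofu and none lower, with a median difference of 0.06. These were Abcg5 and Abcg8, the partners in the pump that moves cholesterol into bile. Abcg5 averaged 0.672 in TF, 0.495 in TS, 0.282 in CF and 0.0465 in CS, and differed by 0.42 between tofu and casein (SE 0.08, adjusted p = 0.0118). Abcg8 averaged 0.0532 in TF, -0.161 in TS, -0.427 in CF and -0.584 in CS, and differed by 0.45 (SE 0.08, adjusted p = 0.0147). Of the cholesterol synthesis and uptake genes 11 of 16 were measured, and 2 were lower with tofu and none higher, with a median of -0.06. They were Insig1, the sterol-sensing brake on the pathway, at -0.44 (adjusted p = 0.0127), and Fdps, farnesyl diphosphate synthase, at -0.18 (adjusted p = 0.0361).

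Of 17 genes for other steps of bile acid synthesis, 16 were measured. With fish oil 2 were higher and none lower, with a median of 0.04, and with tofu none was called, with a median of 0.04. The peroxisomal transporter Abcd3 was 0.19 higher with fish oil (adjusted p = 0.0431) and the very long chain acyl-CoA synthetase Slc27a2 was 0.16 higher (adjusted p = 0.0266). Cyp3a2, a P450 of the endoplasmic reticulum, was 0.36 higher in TF than in CS (adjusted p = 0.0338). Of the peroxisomal fatty acid oxidation genes 10 of 12 were measured and 5 were higher with fish oil, namely Ehhadh, Crot, Pex11a, Decr2 and Ech1, by 0.26 to 0.51. Phyh was not called for the oils but was 0.29 higher in TF than in CS (adjusted p = 0.0344). The peroxisomal members Acox2 and Amacr differed by 0.00 and 0.02 between the oils.

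**Figure D4:**
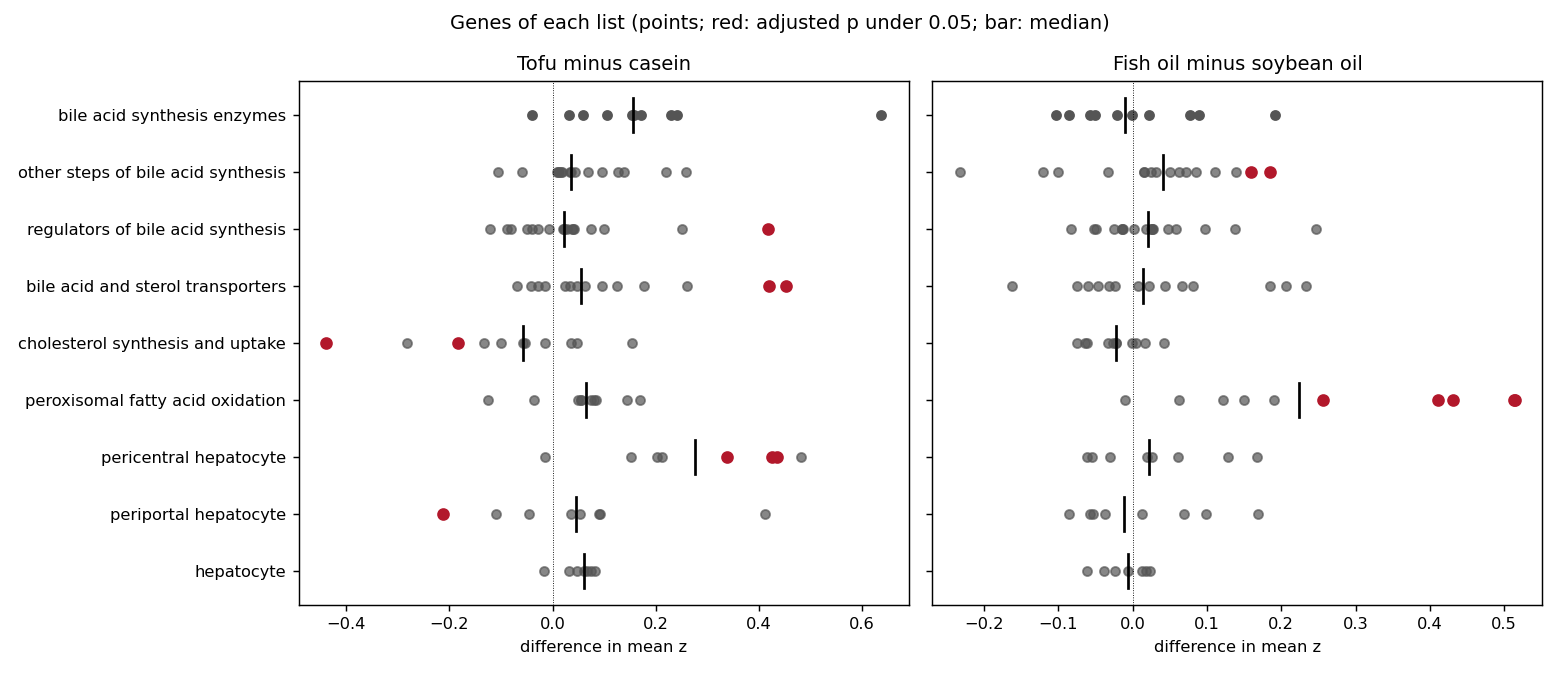
The difference in mean z (horizontal axis) of each measured gene for tofu minus casein and fish oil minus soybean oil, by list, with the median as a bar and genes with an adjusted p under 0.05 in red. The 10 enzymes have a median of 0.16 for tofu and -0.01 for fish oil, while 5 peroxisomal fatty acid oxidation genes stand out for fish oil at 0.26 to 0.51.

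Liver zone and cell type markers were read beside these values. Cyp7a1 is known as a gene of pericentral hepatocytes, those around the central vein. Of 9 pericentral markers 8 were measured, and 3 were higher with tofu and none lower, with a median of 0.28, namely Cyp1a2 at 0.43 (adjusted p = 0.00924), Slc1a2 at 0.34 (adjusted p = 0.00228) and Oat at 0.42 (adjusted p = 0.00430). Over all probe sets 0.557% passed between tofu and casein, in either direction. The mean z of the 8 measured pericentral markers per rat ran from 1.24 to 1.38 in TF and 1.14 to 1.33 in TS. In CF it ran from 0.864 to 1.08 and in CS from 0.844 to 1.11. The lowest tofu rat thus lay just above the highest casein rat (1.14 against 1.11). How often the means of other sets of 8 genes separate in this way was not computed. The mean includes the 3 called markers, so its separation is not independent of their calls. The list was also chosen with earlier results of these data known. Cyp2e1, of the same list, was 0.33 higher in TF than in CS (adjusted p = 0.0291). Of the periportal markers 8 of 9 were measured, and Hsd17b13 was lower with tofu at -0.21 (adjusted p = 0.00422), with a list median of 0.05. The part of the zone markers in the enzymes' differences was not tested.

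The hepatocyte markers, 7 of 8 measured, had a mean z per rat of 3.07 to 3.32 in TF, 3.18 to 3.29 in TS, 3.06 to 3.25 in CF and 3.09 to 3.17 in CS and lay far above the array medians. None was called between tofu and casein (Serpina1 0.08, Fgb 0.07 and Alb 0.07 were the largest). Of the Kupffer cell markers 6 of 8 were measured and Cd14, which also responds to bacterial lipopolysaccharide, was 0.59 higher with tofu (adjusted p = 5.25e-05). The mean z of the 6 ran from 0.960 to 1.15 in TF, 0.968 to 1.19 in TS, 0.846 to 0.980 in CF and 0.791 to 1.01 in CS. The other 5 of these markers differed by 0.02 to 0.06 between tofu and casein, and the list median was 0.05. The stellate, endothelial, bile duct and lymphocyte markers gave no called gene between tofu and casein, fish oil and soybean oil, or single diets. Their largest absolute main differences were those of Dcn (-0.12 for the oils), Lrat (0.11 for the proteins) and Reln (0.10), of Stab1 (-0.07 for the oils), Stab2 (0.13 for the proteins) and Lyve1 (0.07), of Krt7 (-0.05 for the oils), Cftr (-0.14) and Spp1 (0.05), and of Cd3e (0.08), Cd3d (0.08) and Ptprc (-0.08) for the oils. Of the 16 symbols listed for the clock genes, which set the daily rhythm of Cyp7a1, 14 were measured and none was called. Bmal1 and Arntl, both listed, name the same gene. The largest absolute main differences in that list were those between tofu and casein of Nr1d1 at 0.31, Bhlhe40 at -0.29 and Nr1d2 at 0.18.

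The arrays differed little as a whole, with medians of -0.102 to 0.0220 and mean correlations with the others of 0.939 to 0.956. In 4 rats, 1 of each diet (TF-3, TS-1, CF-1 and CS-1), the 5' beta-actin probe set read 1.30 to 1.42, against 1.86 to 2.13 in the other 16. Without these 4 the difference of Cyp7a1 between tofu and casein was 0.62 (adjusted p = 0.192) and that of Cyp8b1 0.20 (adjusted p = 0.178). The 3 arrays least correlated with the others (TF-4, TF-5 and TS-7) are all of tofu rats, and TS-7 and TF-5 held the highest Cyp7a1 values. Without these 3 the Cyp7a1 difference was 0.49 (adjusted p = 0.286) and that of Cyp8b1 0.24 (adjusted p = 0.0555).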

How the data were processed

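Liver RNA of 20 rats was hybridised to 1 Affymetrix array each. Signals were normalized by the authors through SuperNORM, and the deposited values are z scores, 1 score per probe set and rat, set against each array's own lognormal distribution. This fixes the scale within an array and removes differences in total signal between arrays, and how the cells of a probe set were summarised is not given in the sources used here. Of 31099 probe sets, 31039 entered the tests, without 57 controls and those with under 3 values in a diet. Symbols come from the platform annotation, updated by gene identifier (20825 probe sets with 1 symbol, 436 with several, 9778 unnamed). The members and lists were chosen with earlier results of these data known.

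A 4-mean linear model was run over the whole table with limma 3.58.1 (R 4.3.3), with moderated variances and Benjamini-Hochberg adjustment over all probe sets (threshold 0.05), and the procedure was tested on simulated data. The ANOVA over Perfect Match cells of the methods needs cell signals, not used here. The p-values measure the spread between rats, and with 5 arrays a group that number limits the precision. Named were all members and, from each list, genes called in any contrast, or else the 3 with the largest main difference. The text names 4 more regulators outside this rule. Pairs were tested with 100000 permutations of rats within diets (scipy 1.17.1). Alternatives were 2 other scalings, a filter on dim probe sets, a block for the rat number, 2 other variance models, array weights, means over probe sets, an adjusted p under 0.1, 2-group fits and each rat left out. Leaving out the 4 low-actin rats or the 3 least correlated arrays was added after seeing the data.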

Additional observations from a re-analysis of the deposited data

Results flagged for a closer look

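In 6 of 44 sets of 5 rats (11 probe sets in 4 diets), 1 rat stood further from the others than Dixon's 95% limit, where chance gives about 1 in 20. Cyp7b1 read -0.844 in TS-4, below the other TS rats. Cyp27a1 read 2.28 in TS-5, above the other TS rats. Slc27a5 read 2.45 in the same rat, again the highest of its diet. Amacr read 1.997 in TF-5, the lowest of its diet. Acox2 read 2.15 in TS-4 and 2.05 in CF-1, each the highest of its diet. None of these 6 values belongs to Cyp7a1 or Cyp8b1.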

How the results depend on the processing

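The count of members called between tofu and casein, 0 as reported, was 1 with each array scaled to the same median and interquartile range (Cyp8b1, adjusted p = 0.0329), 2 with only probe sets of mean z above 0 (Cyp7a1 and Cyp8b1), 1 with a variance trend and robust estimation (Cyp8b1), 1 with probe sets averaged per gene (Cyp8b1), 2 at an adjusted p under 0.1, and 0 to 1 with each rat left out (1 without TF-5, Cyp8b1, adjusted p = 0.0412). It stayed 0 without moderation of the variance. The cause of the changes was not tested, other than that fewer probe sets or genes were tested in the second and the fourth. For TF against CS, 1 as reported, it was 0 with the rat number as a replicate block (Cyp8b1 0.34, adjusted p = 0.108), 0 without the 4 low-actin rats (Cyp8b1 0.38), and 0 to 1 with each rat left out (0 without TF-6, and Akr1d1 in place of Cyp8b1 without CS-2). Counts for the oils, the interaction and the other single diets stayed at 0 under the settings run. The signs that changed were all of differences not called. They were those of Acox2 (0.0223) and Baat (0.00701) for the oils with arrays scaled to 1 median and range, Cyp7b1 (0.0842) for the proteins with the replicate block, Cyp7b1 for the proteins (0.00947) and the oils (0.0324) and Amacr for the oils (-0.0268) without the 4 low-actin rats, and Hsd3b7 for the proteins (-0.0115) and Acox2 for the oils (0.00304) without the 3 least correlated arrays. With each rat left out Acox2 ran from -0.0505 to 0.0348 and Amacr from -0.00633 to 0.0753 for the oils, and Cyp7b1 from -0.0702 to 0.00527 for the proteins. Cyp7a1 for the proteins ran from 0.54 to 0.70 with adjusted p from 0.0646 to 0.156. Equal rat numbers went with little likeness. Same-numbered rats of different diets correlated at a median of 0.0370 (1 of 22 pairs over 0.1) and others at -0.00804 (8 of 128). This check matched equal numbers only. The 4 low-actin rats (TF-3, TS-1, CF-1 and CS-1) are the lowest-numbered of each diet on arrays. Whether arrays share more along the numbering was not tested. All p-values rest on 5 rats a diet, with a median standard error of 0.05 for a main difference and 0.08 between single diets.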
